A study of Homo sapiens with 12 samples.

Results

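The genes described here are 9 cell-surface receptors with known roles in neuroblastoma, chosen by name from the 58735 gene rows of the 2 count tables. They are ALK, NTRK2 (TRKB), NTRK3 (TRKC), NGFR (the low-affinity neurotrophin receptor), RET, EGFR, PDGFRA, PDGFRB and KIT, and each had 1 row. Bulk RNA-seq was performed on KELLY, a human neuroblastoma line with MYCN amplification, and on SK-N-AS, a human neuroblastoma line without it. Each line was grown for 24 h with DMSO, the vehicle, or with Erastin, which blocks cystine uptake through system Xc- and sets off ferroptosis, at 1 µM in KELLY and 2 µM in SK-N-AS. Every group had 3 samples, described as biological triplicates and seeded as triplicate wells of 1 established line, so p-values measure the spread between such cultures and not between patients. The questions were how the receptors differed between the lines with DMSO, and whether Erastin altered them within each line.

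All of these genes except NGFR encode receptor tyrosine kinases: ligand binding pairs the receptors, which phosphorylate each other and recruit adaptor proteins that feed the RAS-MAPK and PI3K-AKT pathways. NGFR has no kinase domain and acts alone or together with TRK receptors. In the developing sympathetic nervous system, from which neuroblastoma arises, TRK receptors and RET respond to neurotrophins and to GDNF-family factors and guide survival and differentiation, and ALK is the receptor most often mutated in neuroblastoma, with KELLY among the lines known to carry an activating change.

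Library totals ran from 24169796 to 29835670 counts. Levels are given as CPM, the count relative to the library total after TMM scaling over all 12 libraries, and between genes only as CPM per kilobase of merged exon. All 10 markers of the sympathetic neuroblast lineage listed, HAND2 and DBH among them, exceeded 1 CPM in both lines, and their summed level was 4509 to 7560 CPM in KELLY DMSO and 1377 to 1692 CPM in SK-N-AS DMSO. The 10 mesenchymal markers, VIM, FN1 and CD44 among them, summed to 273 to 350 CPM in KELLY DMSO and 2747 to 3002 CPM in SK-N-AS DMSO. PTPRC, a leukocyte phosphatase, made up nearly all of the 488 to 621 CPM of the blood list in SK-N-AS DMSO, where 6 of the 9 blood markers were at 0, and was at 0 in KELLY. In KELLY DMSO the blood list summed to 0.163 to 15.4 CPM, led by HBA2 and HBB. Nearly all of these reads came from 1 library, KELLY DMSO replicate 1, with 178 of the 179 HBA2 counts and 208 of the 211 HBB counts. Endothelial markers summed to at most 2.97 CPM in the DMSO libraries, Schwann cell markers to at most 1.67 CPM, and no epithelial marker reached the filter on low counts.

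With DMSO, the lines carried different sets of abundant receptors. KELLY had high ALK and almost no PDGFRA, SK-N-AS had high PDGFRA and EGFR and almost no ALK, and RET and PDGFRB were abundant in both. NTRK2, NTRK3, NGFR and KIT were low in both lines. Of the 9 genes, 8 passed the filter on low counts in the line comparison and KIT did not. At an adjusted p under 0.05 (edgeR quasi-likelihood test, Benjamini-Hochberg over all genes), 5 of these 8 differed, 1 higher in KELLY and 4 higher in SK-N-AS, beside 61.3% of all 17089 genes tested. At the same adjusted p and at least 4-fold, 1 receptor (ALK) was higher in KELLY, where 11.6% of all genes passed, and 2 (PDGFRA and EGFR) were higher in SK-N-AS, where 11.5% passed. In bulk RNA, fewer cells with a transcript and less of it per cell cannot be told apart.

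**Figure D1:**
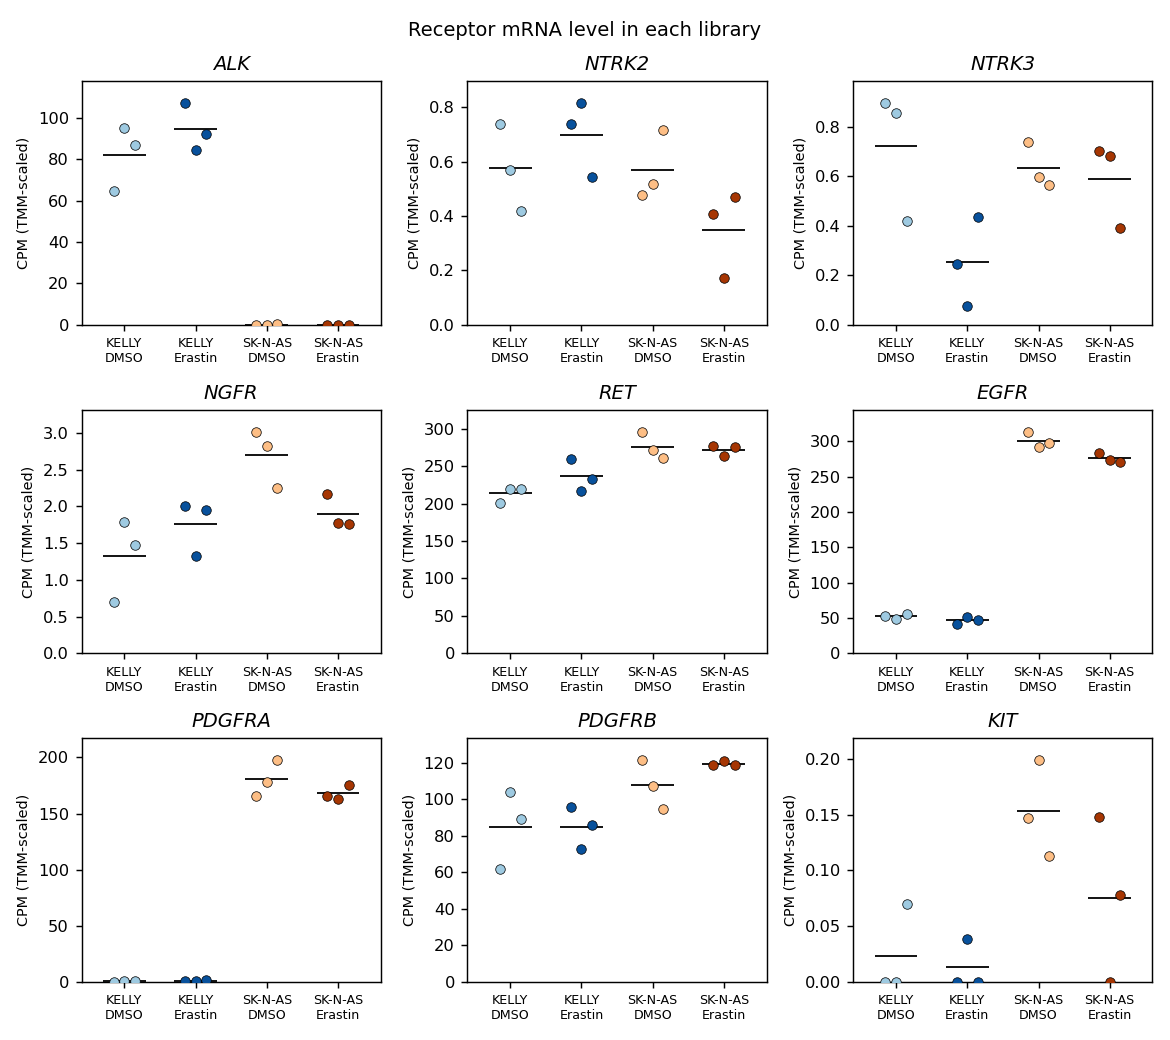
Level of each of the 9 receptors (y axis, CPM after TMM scaling, from 0) in each of the 12 libraries (points), by line and treatment (x axis), with the mean of 3 libraries as a bar. ALK was at 64.6 to 107 CPM in all 6 KELLY libraries and at most 0.150 CPM in SK-N-AS, and PDGFRA was at 163 to 198 CPM in SK-N-AS and at most 1.123 CPM in KELLY.

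ALK, the receptor for ALKAL1 and ALKAL2, stood at 64.6, 95.3 and 86.8 CPM in the 3 KELLY DMSO libraries and at 0.0368, 0.0398 and 0.150 CPM in the 3 SK-N-AS DMSO libraries. The groups were far apart, and the SK-N-AS values came from only 1, 1 and 4 counts. The fold change was 10.00 on the log2 scale (SE 0.37, edgeR adjusted p = 1.56e-07). The pooled counts, 6484 in KELLY and 6 in SK-N-AS, gave a ratio of 1081 with a 95% counting interval of 496 to 2946, which covers counting error only. The gene lies at chr2:29192774-29921586 on the minus strand of GRCh38, and 135 of its exon bases lie opposite exons of CLIP4.

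PDGFRA, a receptor for platelet-derived growth factors typical of mesenchymal cells, had the opposite pattern. It stood at 0.117, 1.06 and 0.840 CPM in KELLY DMSO and at 166, 179 and 198 CPM in SK-N-AS DMSO. Every SK-N-AS library was above every KELLY library, and 1 KELLY library had only 3 counts where the others had 26 and 24. The fold change, KELLY over SK-N-AS, was -8.05 on the log2 scale (SE 0.47, edgeR adjusted p = 1.23e-06), and the pooled counts of 53 and 14244 gave a ratio of 0.00372 (95% counting interval 0.00279 to 0.00487). PDGFRA lies at chr4:54229280-54298245 on the plus strand, and 1533 of its exon bases are shared with another annotated gene on that strand, so reads there could have been left uncounted.

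EGFR, the receptor for EGF, TGFA and HBEGF, was present in both lines at different levels. It measured 53.3, 49.2 and 56.0 CPM in KELLY DMSO and 314, 291 and 297 CPM in SK-N-AS DMSO. The libraries of each line lay close together and the lines did not overlap. The fold change was -2.49 on the log2 scale (SE 0.13, edgeR adjusted p = 5.96e-07), so KELLY held 0.176 of the SK-N-AS level by pooled counts (95% counting interval 0.170 to 0.182). The gene lies at chr7:55019017-55211628 on the plus strand.

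The stretch just upstream of the annotated gene start is shown for ALK, EGFR and PDGFRA because these 3 receptors differed at least 4-fold between the lines. Sequences are from RefSeq promoter windows on GRCh38.p14, cut to the bases outside the gene, 5′ to 3′ on the gene's strand, with CG pairs in capitals: ALK at chr2:29921587-29921836 (minus strand), EGFR at chr7:55018767-55019016 (plus strand) and PDGFRA at chr4:54229043-54229279 (plus strand).
ALK: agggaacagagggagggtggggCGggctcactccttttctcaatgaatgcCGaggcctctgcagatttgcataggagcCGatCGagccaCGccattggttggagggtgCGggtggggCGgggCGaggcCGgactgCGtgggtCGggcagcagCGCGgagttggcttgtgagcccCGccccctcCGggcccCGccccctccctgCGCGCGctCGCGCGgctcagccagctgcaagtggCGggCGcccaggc
EGFR: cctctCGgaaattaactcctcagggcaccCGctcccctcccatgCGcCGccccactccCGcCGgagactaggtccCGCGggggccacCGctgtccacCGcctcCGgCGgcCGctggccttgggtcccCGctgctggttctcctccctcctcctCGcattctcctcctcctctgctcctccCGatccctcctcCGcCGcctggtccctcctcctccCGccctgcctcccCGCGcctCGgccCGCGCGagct
PDGFRA: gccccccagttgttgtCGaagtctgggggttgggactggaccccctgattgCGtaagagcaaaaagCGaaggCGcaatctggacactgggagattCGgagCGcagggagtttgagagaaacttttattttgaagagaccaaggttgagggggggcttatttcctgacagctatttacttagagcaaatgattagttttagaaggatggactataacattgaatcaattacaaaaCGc
The ALK stretch held 24 CG pairs and was 71.6% GC, and the EGFR stretch held 25 CG pairs and was 73.6% GC, against a median of 11 CG pairs and 58% GC over 35114 windows of 250 bases. The PDGFRA stretch of 237 bases held 7 CG pairs and was 46.4% GC. On either strand, GGGCGG, the letters of a GC box, occurred 4 times in ALK, 2 times in EGFR and 0 times in PDGFRA, and 42.64% of all windows held it. The E-box letters CANNTG occurred 2 times in ALK, 2 times in PDGFRA and 0 times in EGFR, against 61.82% of windows. CACGTG, which is one form of CANNTG, was found in none of the 3 stretches (6.345% of windows held it), nor was TATAAA (10.72%). These are matches of letters in short windows, and ALK, EGFR and PDGFRA each have a further annotated start elsewhere. The windows of 250 bases at those further starts lie inside the genes and held 2, 1 and 25 CG pairs, in that order. They were 53.6%, 38.8% and 64% GC and held GGGCGG 0, 0 and 2 times. The further ALK window held CACGTG 1 time and the further EGFR window held TATAAA 2 times. The contrast between the 3 receptors thus depended on the start taken.

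RET, the signalling receptor for GDNF-family ligands, was the most abundant of the receptors per kilobase in both lines. It measured 202, 220.2 and 219.9 CPM in KELLY DMSO and 296, 271 and 261 CPM in SK-N-AS DMSO. All SK-N-AS libraries lay above all KELLY libraries, but the gap was small: -0.36 on the log2 scale (SE 0.12, edgeR adjusted p = 0.0284). Leaving out SK-N-AS DMSO replicate 1 ended that call (adjusted p = 0.0943), as did leaving out SK-N-AS DMSO replicate 2 (0.0882) or KELLY DMSO replicate 3 (0.0850).

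PDGFRB, the other platelet-derived growth factor receptor, measured 61.5, 104 and 89.4 CPM in KELLY DMSO and 121, 107 and 94.9 CPM in SK-N-AS DMSO. The groups overlapped, and the fold change of -0.33 on the log2 scale (95% interval -0.79 to 0.13, edgeR adjusted p = 0.187) did not pass. With a correction for each library's GC trend the fold change was -0.36 and passed (edgeR adjusted p = 0.000690). KELLY DMSO replicate 1 was the lowest DMSO library of that line for ALK, PDGFRA, NGFR, RET and PDGFRB, and the highest for NTRK2 and NTRK3. It had fewer reads of GC-rich genes (Spearman correlation of -0.82 between gene GC content and deviation from the KELLY mean, over 11567 genes). The longest transcripts of ALK, NGFR, PDGFRB and RET were 57.9%, 62.9%, 57.5% and 52% GC. Those of PDGFRA, NTRK2 and NTRK3 were 42.9%, 45.1% and 43.7% GC. Whether GC content set the levels in that library was not tested.

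The neurotrophin receptors among the 9 genes were low. NGFR measured 0.700, 1.79 and 1.47 CPM in KELLY DMSO and 3.02, 2.82 and 2.26 CPM in SK-N-AS DMSO, without overlap. Its fold change was -1.02 on the log2 scale (SE 0.35, edgeR adjusted p = 0.0312), and the call was lost without SK-N-AS DMSO replicate 1 (0.0942), SK-N-AS DMSO replicate 2 (0.0847) or KELLY DMSO replicate 3 (0.0653). Of its exon bases, 1126 lie opposite other annotated genes, NGFR-AS1 among them, and whether the counting used strand is not given in the sources used here.

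NTRK2, the receptor for BDNF, had 19, 14 and 12 counts in KELLY DMSO and 13, 13 and 19 in SK-N-AS DMSO, which are 0.576 ± 0.160 and 0.570 ± 0.127 CPM (SD, n = 3). NTRK3, the receptor for NTF3, had 23, 21 and 12 counts against 20, 15 and 15, which are 0.723 ± 0.263 and 0.632 ± 0.0915 CPM. Both overlapped fully between the lines, with log2 fold changes of 0.02 (95% interval -0.86 to 0.90) for NTRK2 and 0.20 (-0.71 to 1.10) for NTRK3. At these depths the intervals are wide, and counts per gene do not separate the full-length kinase forms of NTRK2 and NTRK3 from their truncated forms.

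KIT, the receptor for KITLG, had 0, 0 and 2 counts in KELLY DMSO and 4, 5 and 3 in SK-N-AS DMSO. The pooled ratio of 0.167 had a 95% counting interval of 0.0181 to 0.749, and the gene was too low to enter the test. A count of 3, the limit that a count of 0 allows, corresponds to 0.102 to 0.123 CPM in these libraries.

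Ranked per kilobase of exon, KELLY DMSO had RET first at 23.8 ± 1.19 CPM per kb (SD, n = 3), then PDGFRB at 11.9 ± 3.02 and ALK at 11.1 ± 2.15. PDGFRB and ALK overlapped between libraries and are not separable in order. EGFR followed at 3.31 ± 0.215 CPM per kb and NGFR at 0.319 ± 0.135. PDGFRA (0.0703 ± 0.0516), NTRK3 (0.0270 ± 0.00982) and NTRK2 (0.0174 ± 0.00481) overlapped each with its neighbour, and KIT was last at 0.00206 ± 0.00357. RET stood above 91.6% of the 19567 genes with any reads and a known length in KELLY DMSO, and ALK above 80.9%.

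In SK-N-AS DMSO RET again came first, at 30.8 ± 2.02 CPM per kb. PDGFRA (18.9 ± 1.69) and EGFR (18.9 ± 0.729) came next and overlapped, and PDGFRB (15.1 ± 1.87) lay below both in every library. NGFR was at 0.652 ± 0.0956 CPM per kb. NTRK3 (0.0236 ± 0.00342), NTRK2 (0.0172 ± 0.00382), KIT (0.0135 ± 0.00382) and ALK (0.0102 ± 0.00877) formed the low end, each overlapping its neighbour. RET stood above 93.4% of the 19821 genes with reads in SK-N-AS DMSO, and ALK above 6.32%. With the longest transcript as the length in place of merged exons, EGFR (30.4 CPM per kb) lay above PDGFRA (28.3) in SK-N-AS. By that length NTRK2 also lay above NTRK3 with DMSO in both lines. The means were 0.0604 and 0.0316 CPM per kb in SK-N-AS, without overlap of libraries, and 0.0611 and 0.0361 in KELLY, with overlap.

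**Figure D2:**
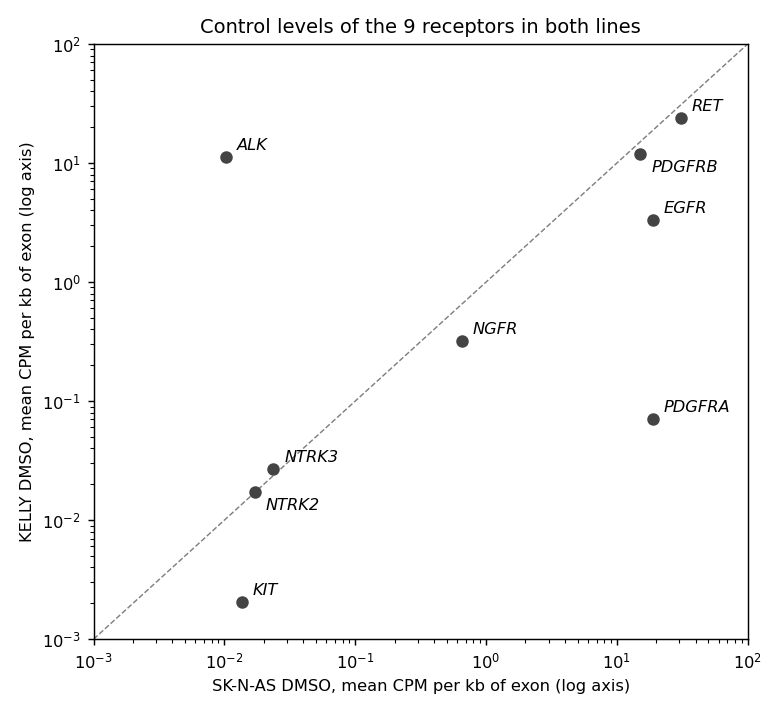
Mean level of the 9 receptors with DMSO in SK-N-AS (x axis) and KELLY (y axis), both in CPM per kilobase of exon on log axes, 3 libraries per mean; the dashed line marks equal levels. ALK lies far above the line, PDGFRA and EGFR lie below it, and RET, PDGFRB, NTRK2 and NTRK3 lie near it.

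As shares of the reads that fell on the 9 receptors together, RET took 49.1% ± 3.08 in KELLY DMSO, PDGFRB 19.2% ± 2.98, ALK 18.7% ± 1.69 and EGFR 12.2% ± 1.75 (SD, n = 3). In SK-N-AS DMSO, EGFR took 34.6% ± 0.354, RET 31.8% ± 1.16, PDGFRA 20.8% ± 2.39 and PDGFRB 12.4% ± 1.20. Longer genes collect more reads, so these shares describe the make-up of the libraries and not an order of transcript number.

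**Figure D3:**
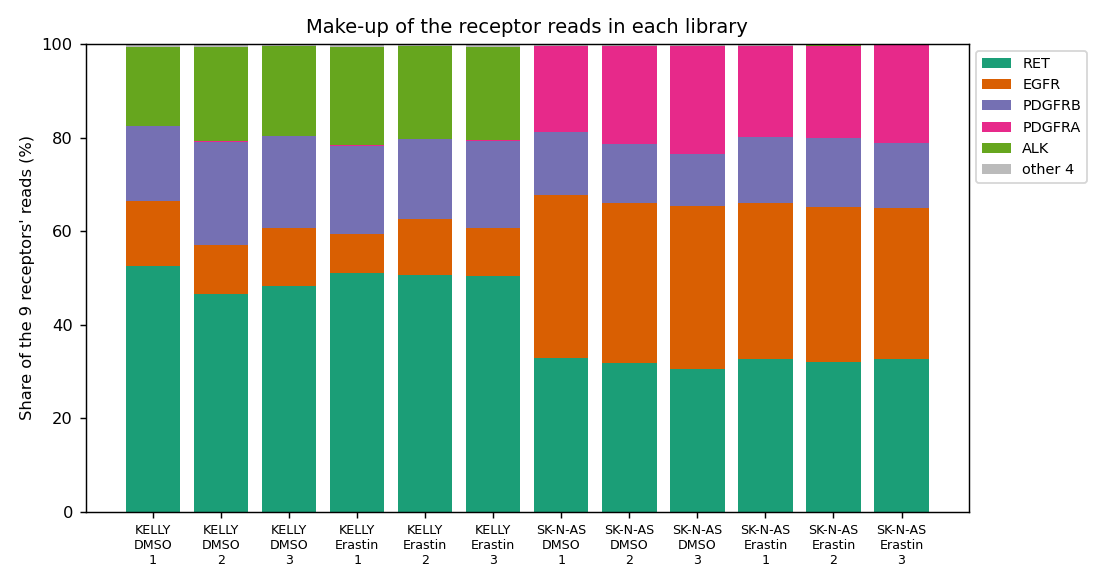
Make-up of the reads that fell on the 9 receptors in each library (x axis, labelled by line, treatment and replicate), as stacked shares in percent (y axis) with the 4 low receptors summed in grey. RET, PDGFRB, ALK and EGFR fill the KELLY bars and EGFR, RET, PDGFRA and PDGFRB the SK-N-AS bars, in DMSO and Erastin libraries alike.

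The ligands of these receptors also differed between the lines. Of 24 listed ligands, 13 could be tested. At an adjusted p under 0.05 by edgeR, 6 were higher in KELLY and 6 in SK-N-AS, beside 61.3% of all genes. The median log2 difference was -0.62, against 0.02 over all genes. For ALK, the ligands ALKAL1 and ALKAL2 were at or near 0 in both lines (mean at most 0.0801 CPM). MDK and PTN, heparin-binding growth factors linked to ALK signalling, differed in opposite directions. MDK was at 183 ± 97.9 CPM in KELLY DMSO and 86.2 ± 20.1 in SK-N-AS DMSO (log2 1.10, SE 0.38, adjusted p = 0.0317), and its KELLY libraries ranged from 85.4 to 281 CPM. PTN was at 7.33 ± 0.652 CPM in KELLY and 90.3 ± 7.12 in SK-N-AS (log2 -3.61, SE 0.16, adjusted p = 3.07e-07).

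BDNF, the NTRK2 ligand, was higher in KELLY DMSO (10.5 ± 0.613 against 1.18 ± 0.141 CPM, log2 3.17, SE 0.20, edgeR adjusted p = 2.31e-06). Of the RET ligands, PSPN was higher in SK-N-AS (10.3 ± 0.834 against 2.35 ± 0.932 CPM, log2 -2.12, SE 0.29, adjusted p = 0.000258), while ARTN (log2 1.17, adjusted p = 0.0242) and GDNF (log2 0.89, adjusted p = 0.0483) were higher in KELLY at under 2 CPM. NRTN was also higher in SK-N-AS by edgeR (43 counts against 14), and DESeq2 called neither NRTN nor GDNF.

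Coreceptors that present GDNF-family ligands to RET also differed between the lines, except GFRA4, which had 0 counts in every library. GFRA1, which binds GDNF, stood at 53.8, 48.4 and 55.8 CPM in KELLY DMSO and at 0 counts in all 3 SK-N-AS DMSO libraries, which makes it at least 461-fold higher in KELLY when 3 counts per library are allowed in SK-N-AS. GFRA2, which binds NRTN, was present in both (153 ± 25.6 CPM in KELLY, 72.6 ± 5.85 in SK-N-AS, log2 1.09, SE 0.16, edgeR adjusted p = 0.000359). GFRA3, which binds ARTN, had 291 counts in KELLY DMSO and 1 in SK-N-AS DMSO. Of the 15 coreceptors and close relatives tested, 8 were called higher in KELLY and 3 in SK-N-AS, beside 61.3% of all genes. Their median log2 difference was 1.09. LINGO1, a partner of NGFR in the Nogo receptor complex, was higher in KELLY (52.3 CPM on average against 7 counts in all, log2 9.14, SE 0.51, adjusted p = 9.94e-07), and ERBB2, a dimer partner of EGFR, was higher in SK-N-AS (6.06 ± 1.80 against 0.374 ± 0.292 CPM, log2 -4.00, SE 0.49, adjusted p = 0.000120).

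HBEGF, an EGFR ligand, was higher in SK-N-AS DMSO (10.7 ± 0.938 against 3.68 ± 0.690 CPM, log2 -1.53, SE 0.20, edgeR adjusted p = 0.000198), as was EGF itself at under 1 CPM (61 counts against 0). TGFA, another EGFR ligand, went the other way and was higher in KELLY DMSO (63 counts against 11). PDGFC, which activates PDGFRA, was higher in SK-N-AS (18.5 ± 2.61 against 2.16 ± 0.195 CPM, log2 -3.08, SE 0.20, adjusted p = 2.28e-06). KITLG was higher in KELLY (25.8 ± 8.66 against 13.9 ± 2.03 CPM, log2 0.91, SE 0.25, adjusted p = 0.0126), although KIT was near 0 in both lines.

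**Figure D4:**
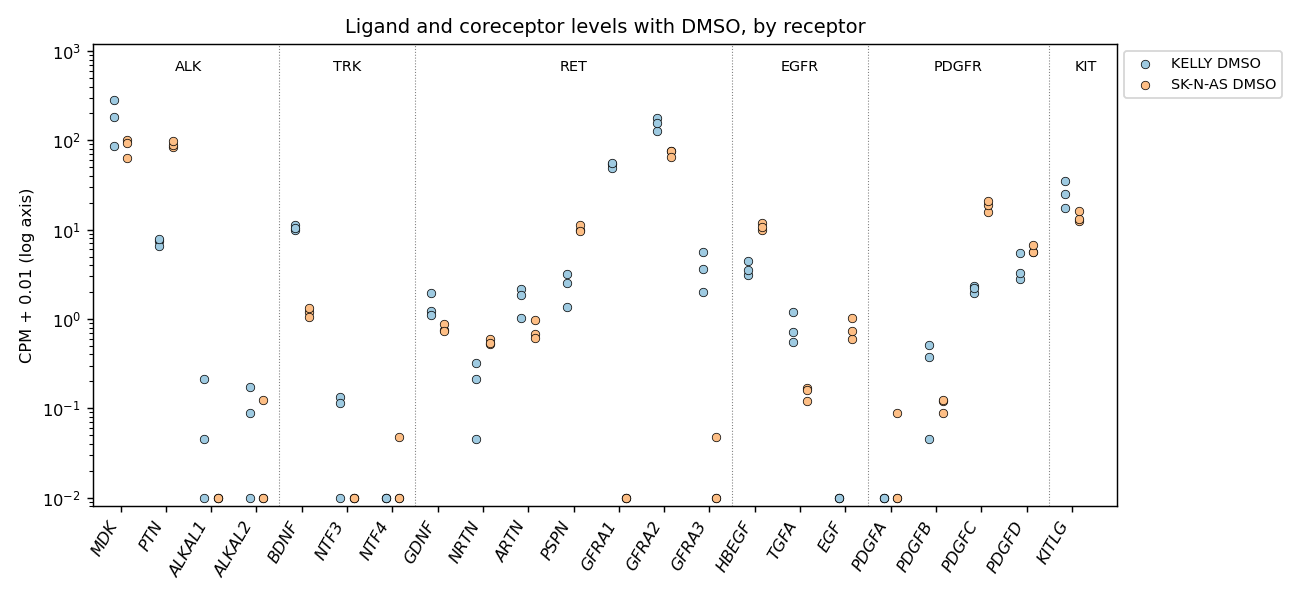
Levels of ligands and RET coreceptors in the 3 KELLY DMSO and 3 SK-N-AS DMSO libraries (points), as CPM plus 0.01 on a log axis, grouped along the x axis by the receptor they serve. PTN and PDGFC sit higher in SK-N-AS and BDNF and GFRA1 higher in KELLY, with GFRA1 at 0 counts in SK-N-AS.

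Among 30 other receptor tyrosine kinases tested, 9 were higher in KELLY and 15 in SK-N-AS (edgeR adjusted p under 0.05). Their median log2 difference was -0.68, and 61.3% of all genes were called. AXL, a receptor for GAS6, had 5996 counts in SK-N-AS DMSO and 0 in KELLY DMSO and was at least 664-fold higher in SK-N-AS. EPHB6, a kinase-dead ephrin receptor, had 1383 counts in SK-N-AS and 1 in KELLY. EPHA10, another ephrin receptor, had 0 counts in SK-N-AS against 766 in KELLY, which sets KELLY at least 85.4-fold higher.

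Downstream of the receptors, 9 of 33 adaptors and effectors tested were higher in KELLY and 14 in SK-N-AS, beside 61.3% of all genes. Each call was at an edgeR adjusted p under 0.05, and the median log2 difference was -0.42. The adaptor SHC2 (log2 3.79, SE 0.40, adjusted p = 5.11e-05) and GRB10 (log2 3.12, SE 0.14, adjusted p = 3.16e-07) were higher in KELLY, and SH2B3, an adaptor that restrains kinase signalling (log2 -3.63, SE 0.19, adjusted p = 8.21e-07), was higher in SK-N-AS. Of 24 genes tested from a list for receptor shut-off, 4 were higher in KELLY and 13 in SK-N-AS, beside 61.3% of all genes. Their median log2 difference was -0.53. The list, called shut-off genes below, also held the proteases ADAM10 and ADAM17 and the deubiquitinase USP8, which need not shut receptors off. LRIG3 and LRIG1, membrane proteins known to modulate receptor kinases, were higher in SK-N-AS (log2 -8.93 and -3.90, adjusted p = 4.02e-07 and 1.09e-06), and the phosphatase PTPN6 was higher in KELLY (log2 5.19, SE 0.40, adjusted p = 7.11e-06).

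Erastin left the receptor profile of KELLY without a called change. None of the 8 receptors tested passed an adjusted p under 0.05 by edgeR (lowest adjusted p = 0.770), and DESeq2 called 0 as well. Over all 16258 genes, 0.00615% passed that adjusted threshold. At an unadjusted p under 0.05, 1 receptor, NTRK3, passed, beside 2.64% of all genes. At the threshold of the study, an unadjusted p of at most 0.05 with a fold of at least 1.5, NTRK3 was the 1 receptor called, beside 2.03% of all genes, and no receptor had groups without overlap, beside 8.54% of all genes. The KELLY DMSO libraries enter both this comparison and the one between lines, and the SK-N-AS DMSO libraries likewise enter 2 comparisons.

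ALK stood at 64.6, 95.3 and 86.8 CPM with DMSO and 107, 84.4 and 92.3 CPM with Erastin in KELLY. The groups overlapped, with a log2 fold change of 0.21 (95% interval -0.23 to 0.65). After the GC correction the value was -0.05. RET, at 202, 220.2 and 219.9 CPM with DMSO, stood at 259, 217 and 233 CPM with Erastin (log2 0.15, 95% interval -0.17 to 0.47). EGFR stood at 53.3, 49.2 and 56.0 CPM with DMSO and at 41.8, 51.3 and 47.0 CPM with Erastin, overlapping at 1 library (log2 -0.18, 95% interval -0.53 to 0.18).

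PDGFRB in KELLY stood at 95.9, 73.0 and 85.7 CPM with Erastin, a mean of 84.9 CPM with either treatment (log2 0.00330, 95% interval -0.51 to 0.51). With the GC correction its value was -0.24, unadjusted p = 0.0260 by edgeR and adjusted p = 0.687. The GC trend of the KELLY libraries was -0.82, 0.69 and -0.47 with DMSO and 0.86, -0.65 and 0.24 with Erastin. Each KELLY group thus held libraries leaning both ways, but most DMSO libraries leaned negative and most Erastin libraries positive.

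NTRK3 in KELLY had 23, 21 and 12 counts with DMSO, against 6, 2 and 12 in the Erastin libraries. The highest Erastin library equalled the lowest DMSO library in counts. The log2 fold change was -1.48 (SE 0.61, edgeR unadjusted p = 0.0436, adjusted p = 0.770), over 56 counts against 20 in all. Leaving out 1 library at a time gave log2 values of -2.14 to -1.06. NTRK2 (18, 21 and 15 counts with Erastin), NGFR (49, 34 and 54), PDGFRA (17, 21 and 31) and KIT (0, 1 and 0) stayed low, with log2 values of 0.28 for NTRK2, 0.42 for NGFR and 0.39 for PDGFRA, none of which passed.

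In SK-N-AS, 7 receptors could be tested and none passed an adjusted p under 0.05 by edgeR (lowest adjusted p = 0.50) or DESeq2. Over all 16095 genes, 0.659% passed that edgeR threshold. At an unadjusted p under 0.05, 1 of the 7 receptors, NGFR, passed, beside 8.77% of all genes. No receptor passed the threshold of the study, where 2.67% of all genes did. In 3 receptors, NTRK2, NGFR and EGFR, the Erastin libraries all lay below the DMSO libraries, beside 14.8% of all genes whose groups did not overlap in either direction.

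NGFR in SK-N-AS stood at 3.02, 2.82 and 2.26 CPM with DMSO and at 2.18, 1.77 and 1.75 CPM with Erastin. Its log2 fold change was -0.50 (SE 0.21, 95% interval -0.95 to -0.04, edgeR unadjusted p = 0.0343, adjusted p = 0.50). EGFR stood at 314, 291 and 297 CPM with DMSO and 284, 273 and 271 CPM with Erastin, a difference of -0.11 on the log2 scale that did not pass (95% interval -0.28 to 0.05). In NTRK2 the counts were 13, 13 and 19 with DMSO, then 11, 5 and 12 in the Erastin libraries (log2 -0.71, 95% interval -1.68 to 0.25).

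The remaining abundant receptors of SK-N-AS had narrow intervals. RET stood at 277, 263 and 276 CPM with Erastin (log2 -0.01, 95% interval -0.18 to 0.16) and PDGFRA at 165, 163 and 175 CPM (log2 -0.09, 95% interval -0.29 to 0.10). PDGFRB stood at 121, 107 and 94.9 CPM with DMSO and 119, 121 and 119 CPM with Erastin (log2 0.16, 95% interval -0.05 to 0.37, edgeR adjusted p = 0.737), and passed only after the GC correction (log2 0.18, adjusted p = 0.0367). NTRK3 had 19, 20 and 10 counts with Erastin (log2 -0.08), ALK 0, 2 and 0, and KIT 4, 0 and 2.

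**Figure D5:**
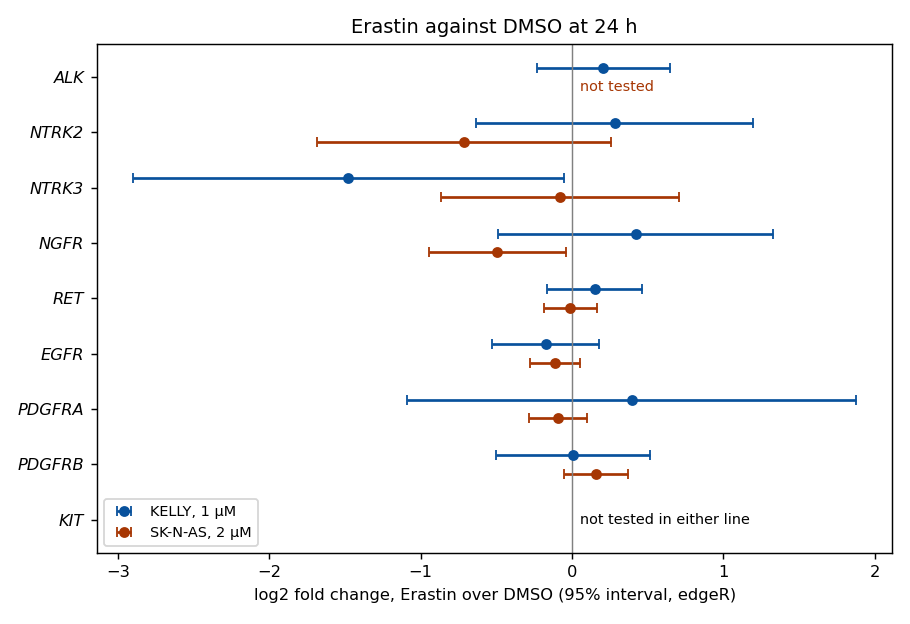
Log2 fold change of each receptor with Erastin over DMSO at 24 h (x axis) in KELLY at 1 µM (blue) and SK-N-AS at 2 µM (brown), with 95% intervals from edgeR, 3 libraries per group. RET and EGFR in both lines, and PDGFRA and PDGFRB in SK-N-AS, have the narrower intervals, all of which include 0. PDGFRB in KELLY has a wider one (-0.51 to 0.51), and the low receptors NTRK2 and NTRK3 have wide ones.

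Whether the response differed between the lines was tested as an interaction over all 12 libraries. None of the 8 receptors tested passed by edgeR (lowest unadjusted p = 0.0548, for NGFR, adjusted p = 0.811), beside 0.00548% of 18239 genes, and DESeq2 called 0. At an unadjusted p under 0.05, 0 receptors passed, beside 4.25% of all genes. NGFR was higher with Erastin in KELLY and lower in SK-N-AS by its means, with a log2 difference of 0.92 (95% interval -0.02 to 1.87). For ALK the term has no use, since SK-N-AS libraries held 0 to 4 counts. The doses differed, so line and dose cannot be told apart in this comparison.

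The make-up of the receptor reads with Erastin stayed within a few percentage points of DMSO. In KELLY, RET took 50.7% ± 0.311, ALK 20.2% ± 0.741, PDGFRB 18.1% ± 0.992 and EGFR 10.1% ± 1.86 (SD, n = 3). In SK-N-AS, EGFR took 32.9% ± 0.687, RET 32.5% ± 0.395, PDGFRA 20.0% ± 0.653 and PDGFRB 14.2% ± 0.377.

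Around the receptors, Erastin in KELLY gave 0 calls by edgeR at an adjusted p under 0.05 and 0 by DESeq2 in all 5 lists, with 3 of 11 ligands, 2 of 32 adaptors, 1 of 22 shut-off genes, 0 of 13 coreceptors and 0 of 24 other receptor kinases at an unadjusted p under 0.05, beside 2.64% of all genes. The 3 ligands had lower means with Erastin. GDNF had 31, 27 and 56 counts with DMSO against 17, 19 and 17 with Erastin (log2 -1.05, SE 0.35), PDGFD 5.44, 2.76 and 3.25 CPM against 1.27, 2.52 and 2.39 (log2 -0.89, SE 0.37), and KITLG 34.9, 17.7 and 24.9 CPM against 9.23, 17.8 and 18.1 (log2 -0.78, SE 0.33), each with an edgeR adjusted p = 0.770.

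In SK-N-AS, 3 genes of the lists passed the adjusted threshold with Erastin. DDR2, a collagen receptor kinase, rose from 235, 241 and 268 CPM to 419, 467 and 466 CPM (log2 0.87, SE 0.08, edgeR adjusted p = 0.000238). FLT1, a receptor for VEGF, fell from 63.9, 64.9 and 68.6 CPM to 47.3, 46.0 and 46.9 CPM (log2 -0.48, SE 0.09, adjusted p = 0.0208). GRB10, an adaptor that dampens insulin and growth factor receptors, rose from 14.8, 16.7 and 15.8 CPM to 21.8, 27.6 and 23.01 CPM (log2 0.63, SE 0.12, adjusted p = 0.0291). In KELLY, GRB10 stood at 129, 136 and 141 CPM with DMSO and 167, 205 and 196 CPM with Erastin (log2 0.49, SE 0.14, adjusted p = 0.770). DDR2 in KELLY ranged from 329 to 422 CPM with DMSO and from 322 to 494 CPM with Erastin. The responses were not shown to differ between the lines at the adjusted threshold: the interaction was -0.13 on the log2 scale for GRB10 (edgeR adjusted p = 0.830) and -0.70 for DDR2 (adjusted p = 0.811). DDR2 was the 1 of 31 other receptor kinases with an interaction at an unadjusted p under 0.05 by edgeR, beside 4.25% of all genes. No ligand, coreceptor or shut-off gene passed in SK-N-AS by edgeR. At an unadjusted p under 0.05, 1 of 12 ligands, 2 of 12 coreceptors, 6 of 28 other receptor kinases (5 of them with lower means under Erastin), 5 of 34 adaptors and 4 of 23 shut-off genes passed, beside 8.77% of all genes. DESeq2 called DDR2, FLT1 and GRB10 as well, and 3 genes that edgeR did not: the ubiquitin ligase RNF41 (log2 0.34 and adjusted p = 0.170 by edgeR), the VEGF receptor KDR (log2 -0.64 and adjusted p = 0.0521 by edgeR) and the adaptor GRB14 (log2 -0.57 and adjusted p = 0.112 by edgeR). These 3 genes lie outside the rule for named genes and were chosen after their values were seen.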

How the data were processed

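Counts per gene from 12 bulk RNA-seq libraries were analysed. Per the study's methods the authors aligned 150-base paired-end reads to GRCh38, annotated them with GENCODE and counted with HTSeq, and the deposited values are raw counts; Trimmomatic and DESeq2 are named in the submitters' processing notes. The aligner, strand setting and treatment of shared reads are not given in the sources used here. Both tables held the same 58735 rows and 0 unassigned columns, and 36194 names matched GENCODE release 44, which gave lengths, GC content and positions.

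Each comparison was fitted on its own libraries with edgeR 4.0.16 in R 4.3.3 (filterByExpr, TMM, glmQLFit, glmQLFTest), with Benjamini-Hochberg adjustment over all genes tested. Intervals are 95% and came from the same fit; ratios of pooled counts have exact conditional Poisson intervals covering counting error only. Totals per library are given with the results. Scripts were tested on simulated data. The members and gene lists were chosen with earlier results of these data known. Named list genes were the up to 3 called genes per list with the largest change whose mean log2 CPM was 1 or more, besides direct ligands and coreceptors. Alternatives were RLE scaling, library size alone, DESeq2 1.42.0, other count filters, protein-coding genes only, a replicate block, a GC correction (loess span 0.5), 1 fit over 12 libraries, the longest transcript as length, and leaving out each library. Some listed genes are not reported here.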

Additional observations from a re-analysis of the deposited data

How the results depend on the processing

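Over all genes, counts at an adjusted p under 0.05 moved most in the Erastin comparisons. In KELLY (1 gene) they were 31 with DESeq2, 19 without the filter, 31 with the GC correction and 17 in 1 fit over 12 libraries, and 0 to 2 when leaving out 1 library. In SK-N-AS (106 genes) they were 221, 265, 889 and 46 in the same order, and 53 to 855 when leaving out 1 library (lowest without SK-N-AS DMSO replicate 2, highest without SK-N-AS DMSO replicate 3). For the interaction (1 gene) they were 12 with DESeq2, 8 without the filter and 12 with the GC correction, and 1 to 3 when leaving out 1 library. At the threshold of the study, KELLY genes (330) were 980 without the filter, 186 among protein-coding genes and 767 in 1 fit, and 197 (without Erastin replicate 1) to 996 (without DMSO replicate 2); SK-N-AS genes (429) were 851 and 285 for the first 2, and 431 to 507. Fewer genes are tested among protein-coding genes, and otherwise the cause was not tested.

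Among the receptors, the KELLY count at the threshold of the study (1) was 0 with at least 10 counts in every sample and with the GC correction, and 0 to 1 when leaving out 1 library, and that in SK-N-AS (0) was 0 to 1. The SK-N-AS count at an adjusted p under 0.05 (0) was 1 with the GC correction. In the line comparison, at least 10 counts in every sample left 3 of 5 receptors, since ALK and PDGFRA were not tested, 1 of 3 at 4-fold, and 1509 of 3942 genes; leaving out 1 library gave 3 to 5 receptors, 3 to 3 at 4-fold, 8956 to 11769 genes at an adjusted p under 0.05 and 4178 to 4358 at 4-fold. RET was not called without the filter (adjusted p = 0.0635).

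Same-numbered samples did not deviate together (correlations of -0.76, -0.79 and -0.12 in KELLY, -0.10, 0.20 and 0.34 in SK-N-AS, and -0.66, 0.23 and -0.28 between the DMSO groups), so the numbers were not taken as a pairing. With the replicate block, genes at an adjusted p under 0.05 were 0 in KELLY, 308 in SK-N-AS and 0 for the interaction, KELLY genes at the threshold of the study were 114 with 0 receptors, and 3 receptors differed between lines. With the replicate block and the GC correction together, they were 5, 1495 (with 1 receptor, PDGFRB) and 2, and KELLY had 193 genes and 0 receptors at the threshold of the study.

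No called receptor changed direction. Among uncalled ones, PDGFRB in KELLY was -0.00489 with RLE scaling, -0.00490 with DESeq2, -0.00204 without the filter, -0.00110 in 1 fit, -0.24 with the GC correction with or without the replicate block, and -0.18 (without DMSO replicate 1) to 0.17 (without DMSO replicate 2) when 1 library was left out. ALK in KELLY was -0.0539 with the GC correction and -0.0569 with block and correction. Leaving out 1 library gave -0.10 to 0.86 for PDGFRA in KELLY, -0.22 to 0.14 for NTRK3 and -0.0500 to 0.0415 for RET in SK-N-AS, -0.19 to 0.21 for NTRK2 between lines, and -0.34 to 0.0216 for PDGFRB and -0.13 to 0.0213 for EGFR in the interaction. Depth limits NTRK2, NTRK3, KIT, ALK in SK-N-AS and PDGFRA in KELLY, where a library held at most 31 counts.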

Other observations

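Over the 12 libraries, the gene whose log2 CPM followed each receptor most closely is given as a description, since the libraries form 4 groups and share 2 lines. ALK was most like RAB6B (Pearson r = 0.999), EGFR most like ATP2B4 (0.999) and PDGFRA most like NID1 (0.998), and each of these receptors had many genes above 0.95 among 12358 compared (1570 for ALK, 1706 for EGFR, 1618 for PDGFRA), so such values were common among genes that differ between the lines. RET was most like AC046185.3 (0.983), PDGFRB most like CDK2AP2 (0.969) and NGFR most like MEX3D (0.958), with 216, 24 and 7 genes above 0.95. NTRK2 (TRMT6, 0.885) and NTRK3 (PPIF, 0.715) had 0 genes above 0.95.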
